A study of Homo sapiens with 92 samples.

Results

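The genes described here encode the machinery that starts transcription: the subunits of RNA polymerases I, II and III, the general transcription factors, and Mediator. They were taken by symbol, with 1 matching symbol set aside, from the stems POLR1, POLR2 and POLR3 with a subunit letter, GTF2A, GTF2B, GTF2E, GTF2F, GTF2H, GTF3C, TAF and MED with a number, and TBP. The rule found 88 genes among the 48905 listed in the files. Of these, 26 encode polymerase subunits, 35 encode general factors (TBP and the TAF proteins included), and 27 encode Mediator subunits.

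RNA polymerase II makes messenger RNA and needs TFIID, which contains TBP and its associated TAF proteins, together with TFIIA, TFIIB, TFIIE, TFIIF and TFIIH at the promoter. Mediator carries signals from enhancer-bound factors to RNA polymerase II and is built of head, middle and tail modules around the scaffold subunit MED14, with a detachable kinase module. RNA polymerase I makes ribosomal RNA with the help of SL1, a complex of TBP and TAF1A to TAF1D, and RNA polymerase III makes transfer RNA and 5S RNA, for which TFIIIC recognises the genes. At mitosis most transcription stops, and it resumes as cells enter G1.

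New RNA was measured by SLAM-seq, in which cells take up 4-thiouridine and the labelled positions are read as T-to-C conversions, so that a read with a conversion (a converted read) marks RNA made during the label, apart from conversions that come from sequencing errors or variants. All but 8 libraries were made from hTERT RPE-1, a telomerase-immortalised line of human retinal pigment epithelium, in a clone called NIPBL-D7, whose genotype is mGreenLantern-P2A-FKBP12(F36V)-NIPBL. The FKBP12(F36V) tag lets the drug dTAGV-1 (dTAG below) direct degradation of NIPBL, the protein that loads cohesin onto chromatin, and DMSO is its vehicle. All cells of every group carried the tag, the RPE-1 data come from 1 clone, and no level of NIPBL protein was analysed here.

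The 92 libraries form 32 groups. In the mitosis series, cells synchronised with thymidine received dTAG or DMSO together with nocodazole for 120 min, were collected by mitotic shake-off, and were released with the same agent for 0, 30, 60, 90 or 120 min, with 4-thiouridine for 15 min (3 or 4 libraries a group). Further libraries of that series were made 4, 6 and 8 h after release, also with 15 min of label (2 a group). In the release series, dTAG or DMSO was given only after release, and cells were taken at 30, 60, 90 and 120 min with 15 min of label (3 a group). Both series also have libraries of 120 min labelled throughout those 120 min (3 a group). The last 8 libraries are cardiomyocytes and neurons that titles and growth protocol derive from WTC11 iNgn2 induced pluripotent stem cells of the same degron genotype, given dTAG or DMSO for 4 h and labelled for 120 min (2 a group). 1 label field of these 8 libraries names hTERT RPE-1 instead, and the titles were followed. The labels do not say whether replicates were separate cultures, so the p-values measure the spread between these libraries, which may be technical.

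Libraries held 10.7 to 114 M reads assigned to genes (M for 1e6), of which 0.419 to 35.4 M were converted. The share of converted reads ran from 2.44% to 38.9%, and the 88 genes took 0.397% to 0.671% of converted reads. 1 library differed from the rest, DMSO replicate 3 at 120 min after mitosis: its 10 most abundant genes took 13.5% of converted reads, where the median library gave 3.50% to them, and 2.64% of all its reads were mitochondrial, the highest share of the 92. Of 8 mitotic genes, 6 were lower at 60 min than at 0 min in DMSO cells of the mitosis series. Retinal pigment epithelium markers such as RPE65 were at or near 0 in the RPE-1 libraries, and in the neurons MAP2 averaged 1245 converted reads per 1e6 (counts per 1e6, CPM) while TUBB3 averaged 0.711. Both iPSC-derived cell types, described as post-mitotic, had CDK1 and LIN28A reads, CDK1 at 76.6 CPM in DMSO neurons and 49.8 CPM in DMSO cardiomyocytes. In all these bulk samples, fewer active cells and less new RNA per cell cannot be told apart.

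The promoters of 5 of the genes are shown because these genes carry the results that follow: MED31, MED10 and POLR2C had some of the largest rises after mitosis, and TAF4B and POLR1C were among the genes that fell with dTAG. Each is the 300-base RefSeq window on GRCh38.p14 around the annotated start, 5′ to 3′ on the gene's strand, and capitals mark matches to the motifs named after the sequences. The windows lie at chr17:6651556-6651855 (minus strand) for MED31, chr5:6378498-6378797 (minus) for MED10, chr16:57462429-57462728 (plus) for POLR2C, chr18:26226195-26226494 (plus) for TAF4B and chr6:43516839-43517138 (plus) for POLR1C.
MED31: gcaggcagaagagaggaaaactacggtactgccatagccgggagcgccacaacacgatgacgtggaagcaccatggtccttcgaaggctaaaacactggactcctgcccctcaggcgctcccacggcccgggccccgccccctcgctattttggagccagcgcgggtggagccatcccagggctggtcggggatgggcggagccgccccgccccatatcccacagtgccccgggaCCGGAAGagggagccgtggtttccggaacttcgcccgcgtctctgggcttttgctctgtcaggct
MED10: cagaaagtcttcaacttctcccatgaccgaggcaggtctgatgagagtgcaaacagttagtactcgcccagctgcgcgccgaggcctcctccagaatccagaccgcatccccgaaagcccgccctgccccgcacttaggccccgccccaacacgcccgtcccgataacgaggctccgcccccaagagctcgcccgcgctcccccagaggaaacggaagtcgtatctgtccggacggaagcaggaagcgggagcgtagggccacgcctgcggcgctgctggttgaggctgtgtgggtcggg
POLR2C: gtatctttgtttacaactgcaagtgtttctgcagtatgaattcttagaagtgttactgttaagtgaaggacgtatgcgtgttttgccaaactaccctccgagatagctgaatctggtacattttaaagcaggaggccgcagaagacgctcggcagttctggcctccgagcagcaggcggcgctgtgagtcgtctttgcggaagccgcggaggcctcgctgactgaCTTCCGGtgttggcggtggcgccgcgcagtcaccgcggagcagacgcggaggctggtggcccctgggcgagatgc
TAF4B: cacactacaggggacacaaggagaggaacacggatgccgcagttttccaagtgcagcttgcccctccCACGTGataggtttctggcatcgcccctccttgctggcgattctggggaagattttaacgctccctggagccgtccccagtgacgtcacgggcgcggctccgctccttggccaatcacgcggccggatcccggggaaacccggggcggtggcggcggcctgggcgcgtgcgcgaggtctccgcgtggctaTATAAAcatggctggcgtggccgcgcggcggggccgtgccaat
POLR1C: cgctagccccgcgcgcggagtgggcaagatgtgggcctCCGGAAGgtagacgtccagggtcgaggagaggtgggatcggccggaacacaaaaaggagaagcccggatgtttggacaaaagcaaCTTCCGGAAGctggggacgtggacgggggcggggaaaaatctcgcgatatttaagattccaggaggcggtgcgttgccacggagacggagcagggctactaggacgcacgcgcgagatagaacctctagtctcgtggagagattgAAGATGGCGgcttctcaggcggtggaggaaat
Each window was searched on both strands for 5 motifs. The core bound by ETS family factors was spelled CCGGAAG and the YY1 site was spelled AAGATGGCG. The E-box was spelled CACGTG, the box bound by TBP was spelled TATAAA, and the core of the NRF1 site was spelled GCGCATGC. The MED31 and POLR2C windows hold the ETS core, the POLR1C window holds the ETS core and the YY1 site, and none of the 5 motifs is in the MED10 window. POLR1C has the ETS core in 2 capital runs, and in 1 of them matches on opposite strands overlap. The TAF4B window has a TATA box and an E-box. Of the 88 genes, 68 matched the table by symbol, with 84 windows. The ETS core was in 38 of the 84 (45.2%), where 3603 of all 35116 windows in the table held it (10.3%), and YY1 sites were in 13.1% of the genes' windows against 1.75% of all windows. TATA boxes were in 4.76% of the genes' windows and in 11.5% of all windows. All windows cover 27305 genes, whether or not they were expressed here, and some genes have more than 1 window. Expressed genes alone were not compared, so these shares cannot be called particular to these genes. Among genes called higher at 60 min after mitosis (below) the ETS core was in 15 of 32 windows (46.9%), and among those tested and not called higher it was in 18 of 47 (38.3%). A match describes letters and is not evidence of binding.

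Time after mitosis was examined first, in DMSO cells of the mitosis series. By 60 min after release, 34 of the 85 genes that passed the filter on low counts were higher than at 0 min and 1 was lower, where 22% of all 14206 genes tested were called higher and 13.9% lower (edgeR's quasi-likelihood test, Benjamini-Hochberg adjusted over all genes tested, threshold 0.05, used for every adjusted p below). The median log2 change of the 85 was 0.46, against 0.02 over all genes tested. MED7, MED11 and POLR2F had too few converted reads to be tested. The rises were spread over most complexes: 10 of 15 tested subunits of the Mediator head and middle, 6 of 15 of TFIID, 3 of 6 of TFIIIC, 3 of 9 of RNA polymerase III, 2 of 4 of SL1 and 2 of 3 of RNA polymerase I alone were higher. The Mediator tail (1 of 7), the kinase module (0 of 2), the scaffold gene MED14 and RNA polymerase II proper (1 of 7) had few or no genes that passed. With 22% of all genes called higher, counts this small do not set these complexes apart. Leaving out 1 replicate number at a time moved the count of 35 calls to between 18 and 33, the lowest without replicate 4 (17 higher, 1 lower), and without replicate 2 it was 19, all higher.

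Within Mediator, the largest rises were in subunits of the middle and head. MED31, a middle-module subunit, had 29.7, 40.3, 43.4 and 45.6 CPM at 60 min, against 5.33, 12.1 and 12.7 CPM at 0 min. All 60 min libraries lay above all 0 min libraries, and the log2 change was 2.09 (SE 0.32, adjusted p = 6.71e-06). MED10, also of the middle module, had 63.9, 65.0, 74.8 and 82.0 CPM at 60 min, against 17.1, 18.4 and 19.1 CPM at 0 min, a log2 change of 1.97 (SE 0.24, adjusted p = 1.97e-07) with no overlap. MED8, a head subunit, had 64.0, 67.8, 72.8 and 81.7 CPM at 60 min, against 14.1, 21.3 and 23.7 CPM at 0 min. Its lowest 60 min library was well above its highest 0 min library, and the log2 change was 1.84 (SE 0.25, adjusted p = 1.09e-06). MED17 and MED6, also of the head, rose as well, with log2 changes of 1.08 and 1.10. MED14, the scaffold that joins the modules, had 81.4, 91.1, 93.9 and 93.9 CPM at 60 min, against 77.4, 104.6 and 115.8 CPM at 0 min. These groups overlap, and the log2 change of -0.15 (SE 0.16, adjusted p = 0.468) did not pass the test. MED12 and MED13 of the kinase module had log2 changes of -0.26 and -0.05, neither of which passed.

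**Figure D1:**
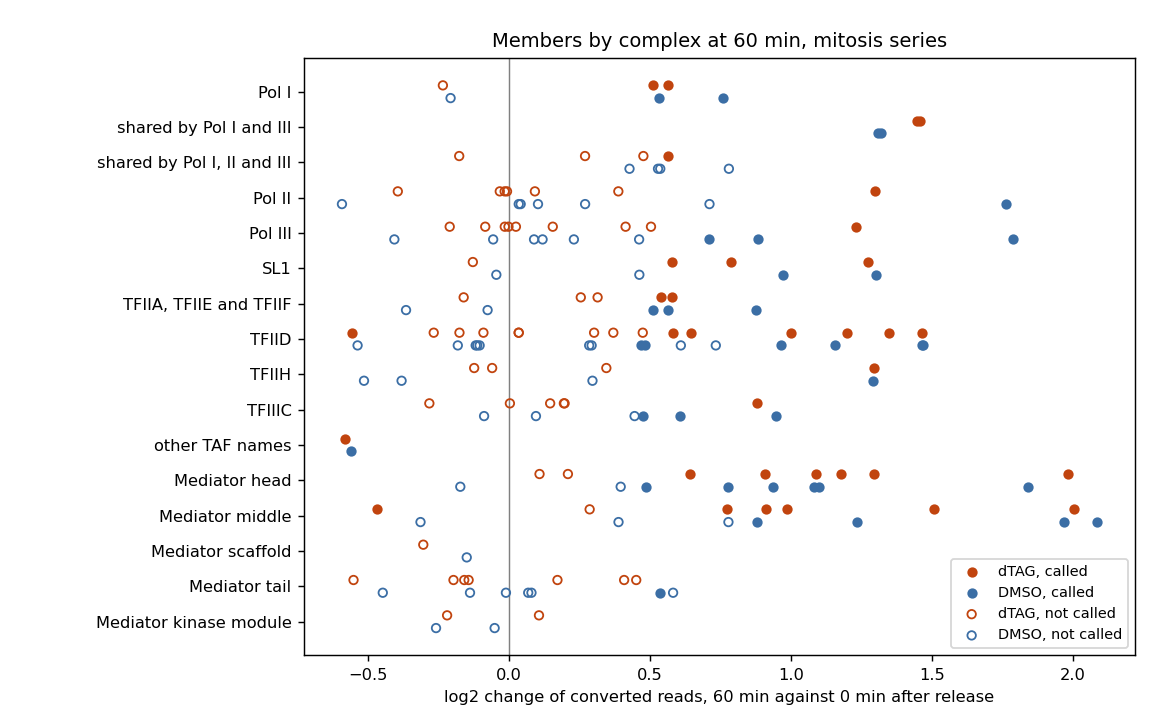
Log2 change of converted reads at 60 min against 0 min in the mitosis series for each tested gene, sorted by complex, in dTAG cells (upper points of a row) and DMSO cells (lower points), filled where called. In DMSO cells the Mediator head and middle hold 10 called rises, with MED31 at 2.09 furthest to the right, while both kinase module genes and MED14 lie below 0.

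Among polymerase genes, POLR2C and POLR3D had the largest rises, and the catalytic subunit genes POLR1A, POLR2A and POLR3A did not pass the test. POLR2C, the third largest RNA polymerase II subunit, had 63.5, 66.6, 66.7 and 82.0 CPM at 60 min, against 15.5, 20.4 and 26.1 CPM at 0 min, a log2 change of 1.76 (SE 0.22, adjusted p = 2.70e-07). Its groups did not overlap. POLR2A, which encodes the catalytic subunit with the C-terminal repeat domain, had 270.9, 279.5, 320.9 and 368.8 CPM at 60 min, against 238.2, 240.1 and 291.7 CPM at 0 min, and its log2 change of 0.27 (SE 0.19, adjusted p = 0.281) did not pass. The 60 min range of POLR2A overlapped the 0 min range. Among RNA polymerase III genes, POLR3D had 52.1, 54.8, 55.1 and 55.7 CPM at 60 min, against 10.1, 16.5 and 20.0 CPM at 0 min, with no overlap and a log2 change of 1.79 (SE 0.19, adjusted p = 3.27e-08). POLR3A, the catalytic subunit of RNA polymerase III, had 124.3, 128.5, 136.7 and 148.4 CPM at 60 min, against 122.1, 124.6 and 132.8 CPM at 0 min, which overlap (log2 change 0.09, SE 0.13, adjusted p = 0.607).

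POLR1C and POLR1D, the subunits that RNA polymerases I and III share, both rose, by log2 changes of 1.31 (SE 0.22, adjusted p = 2.12e-05) and 1.32 (SE 0.18, adjusted p = 1.44e-06). Neither gene's 60 min libraries overlapped its 0 min libraries. POLR1D had 106.0, 121.0, 140.0 and 155.0 CPM at 60 min, against 43.2, 50.9 and 60.6 CPM at 0 min. POLR1B, the second largest RNA polymerase I subunit, rose by 0.53 (SE 0.20, adjusted p = 0.0406). The catalytic subunit gene POLR1A had 90.4, 100.5, 104.9 and 128.3 CPM at 60 min, against 106.6, 121.0 and 138.1 CPM at 0 min, and did not pass (log2 change -0.21, SE 0.13, adjusted p = 0.220). The 4 tested subunits common to all 3 polymerases had log2 changes of 0.43 to 0.78, and none of them passed.

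Among general factors, TBP, the TATA-binding subunit used by all 3 polymerase systems, had 71.2, 83.6, 89.7 and 91.1 CPM at 60 min, against 34.6, 38.2 and 39.7 CPM at 0 min. The 60 min libraries of TBP were all higher, with a log2 change of 1.16 (SE 0.20, adjusted p = 2.97e-05). TAF13, a histone-fold subunit of TFIID, had 85.4, 92.3, 97.3 and 102.9 CPM at 60 min, against 27.6, 32.7 and 44.2 CPM at 0 min (log2 change 1.47, SE 0.21, adjusted p = 1.82e-06). TAF1, the largest TFIID subunit, had 89.1, 104.8, 105.7 and 106.0 CPM at 60 min, against 93.7, 108.6 and 123.6 CPM at 0 min, which overlap, and its log2 change of -0.10 (SE 0.13, adjusted p = 0.554) did not pass. GTF2H1, a core subunit of TFIIH, rose by 1.29 (SE 0.17, adjusted p = 8.08e-07), the single call among 4 TFIIH genes tested. TAF15 was the only one of the 85 genes called lower, at 103.5, 108.0, 131.7 and 133.1 CPM at 60 min, against 156.8, 161.0 and 207.4 CPM at 0 min (log2 change -0.56, SE 0.17, adjusted p = 0.0123). Of 12 other settings 7 kept this call, and with totals of all reads as library sizes the log2 change was 0.01905. TAF15 is an RNA-binding protein of the FET family that carries a TAF name and is not a core TFIID subunit.

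A separate set of libraries, the dTAG-treated cells, went through the same release. In them 31 of 85 genes were higher at 60 min than at 0 min and 3 were lower, where 23.5% and 14.6% of all genes tested were called in these directions. Of the 34 genes called higher in DMSO cells and the 31 called higher in dTAG cells, 26 were in both. The same overlap over all genes tested was not counted. MED31 had 43.0, 47.8, 52.0 and 55.7 CPM at 60 min with dTAG, against 7.10, 8.98, 11.7 and 21.3 CPM at 0 min with dTAG (log2 change 2.00, SE 0.26, adjusted p = 2.97e-07). MED8 had a log2 change of 1.98 (SE 0.22, adjusted p = 1.63e-08) there. TAF15 fell in these cells too, by 0.58 (SE 0.16, adjusted p = 0.00490), and the other falls were those of TAF4 and MED1. Of 12 other settings the call was kept in 8 for TAF15, 7 for TAF4 and 8 for MED1. With totals of all reads as library sizes their directions turned (0.12, 0.13 and 0.23).

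At 90 and 120 min TBP overlapped its 0 min range, while TAF1D stayed above its own. TBP in DMSO cells had 34.6, 38.2 and 39.7 CPM at 0 min, 44.6, 44.8 and 53.7 CPM at 30 min, and 71.2 to 91.1 CPM at 60 min. At 90 min it had 30.1, 39.7, 42.8 and 48.6 CPM and at 120 min 27.0, 33.3, 40.9 and 42.2 CPM, values that overlap those at 0 min. GTF2H1 had 58.2 to 88.2 CPM at 120 min, against 52.8 to 76.1 CPM at 0 min, and MED17 had 91.5 to 122.2 CPM at 120 min, against 80.0 to 98.5 CPM at 0 min. POLR1D had 49.9 to 84.5 CPM at 120 min, against 43.2 to 60.6 CPM at 0 min, so in these 3 genes the times overlap. TAF1D, an SL1 subunit, stayed high: it had 277.2 to 353.3 CPM at 60 min, 254.6 to 448.6 CPM at 90 min and 229.6 to 397.9 CPM at 120 min, all above its 0 min range of 121.0 to 144.4 CPM.

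**Figure D2:**
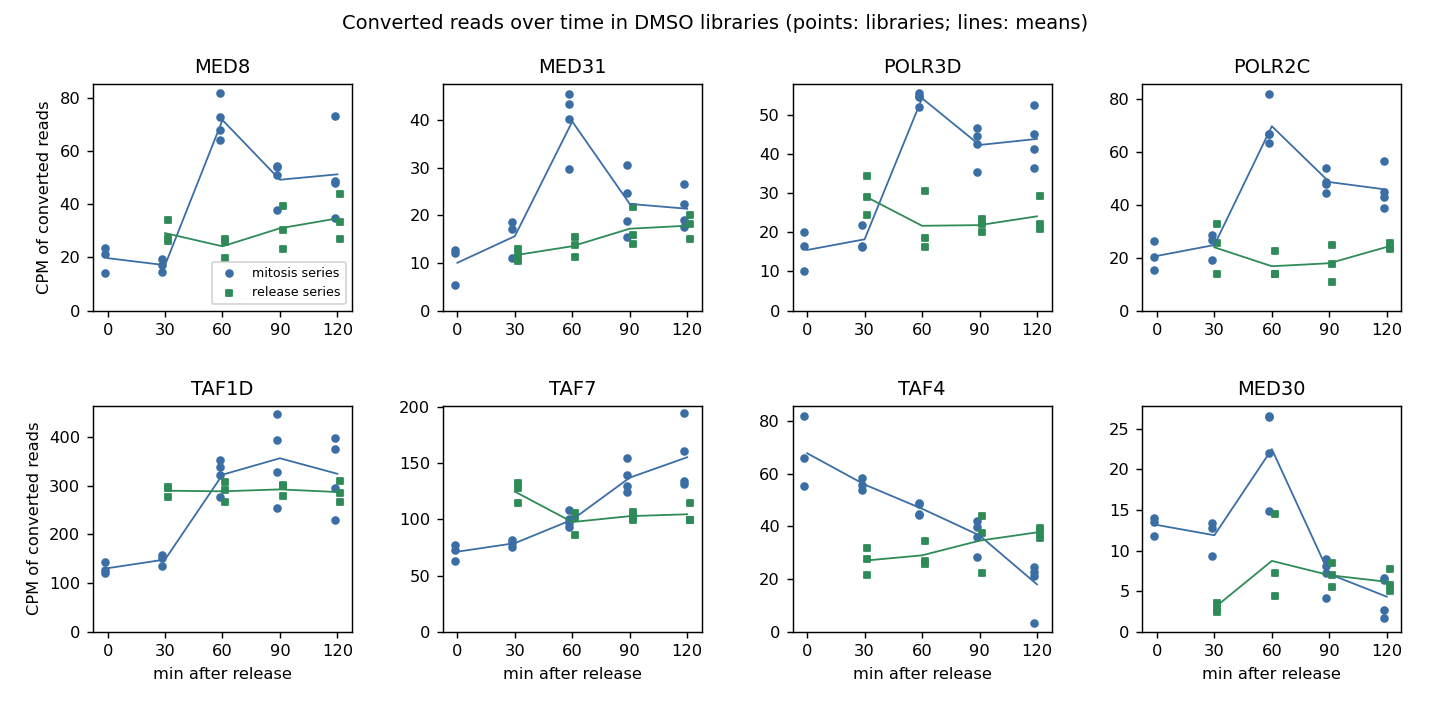
Converted reads per 1e6 (CPM) in each DMSO library at 0 to 120 min after release for 8 genes, circles for the mitosis series and squares for the release series, with lines through the means. In the mitosis series MED8 and MED31 are highest at 60 min and TAF4 and MED30 are lowest at 120 min, while MED8 and MED31 have no 60 min peak in the release series.

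At 90 min 19 of 85 genes were higher than at 0 min and 4 were lower in DMSO cells (14.3% and 9.98% of all genes tested). At 120 min 19 were higher and 6 lower (14.7% and 13.1% of all genes), the median log2 change of the 85 was 0.13, and that of all genes was 0.06. 17 of the genes called higher at 60 min were also called higher at 120 min, in comparisons that share their 0 min libraries. The matching number over all genes was not counted. The 25 calls at 120 min became 10 without replicate 2 and 14 without replicate 4. The largest rises at 120 min were those of POLR3D (log2 change 1.498, SE 0.20, adjusted p = 5.49e-07), TAF1D (1.31, SE 0.18, adjusted p = 1.64e-06) and MED8 (1.304, SE 0.26, adjusted p = 0.000235). Relative to all reads of each gene the direction turned for MED8 (-0.01466). It also turned for MED31 (-0.19) and POLR2C (-0.06491), which were called higher as well. POLR3A, which had not passed at 60 min, passed at 120 min with a log2 change of 0.36 (SE 0.13, adjusted p = 0.0317).

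The largest fall at 120 min was that of TAF4, a TFIID subunit that docks activators. TAF4 had 3.33, 21.1, 22.8 and 24.7 CPM at 120 min, against 55.3, 65.9 and 81.9 CPM at 0 min. All 120 min libraries were lower than all 0 min libraries, and the log2 change was -1.76 (SE 0.24, adjusted p = 1.18e-06). The lowest value belongs to the library that stood apart, and without it the log2 change was -1.62. Of 12 other settings 11 kept the call of TAF4, and the weakest value among the 12 was -0.13. At 120 against 30 min the direction of TAF4 turned relative to all reads of the gene (0.11). MED30, a metazoan head subunit of Mediator, was higher at 60 min (log2 change 0.78, SE 0.28, adjusted p = 0.0282) and lower at 120 min, when it had 1.66, 2.63, 6.38 and 6.63 CPM, against 11.8, 13.6 and 14.1 CPM at 0 min (log2 change -1.44, SE 0.34, adjusted p = 0.00153). The 120 min libraries of MED30 were all below the 0 min libraries. GTF2H2, TAF1B, TAF15 and TAF1 fell by 0.85, 0.58, 0.57 and 0.35. Of 12 other settings, the call was kept in 3 for GTF2H2, 6 for TAF1B, 9 for TAF15 and 4 for TAF1, and relative to all reads of each gene the direction turned for TAF1B (0.27) and TAF15 (0.04271). Reads of GTF2H2, a TFIIH core subunit, are uncertain, because near-identical copies of this gene exist in the genome.

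With dTAG, 14 of 85 genes were higher at 120 min than at 0 min and 11 were lower (14.1% and 11.2% of all genes tested). TAF4 fell there as well, by 1.26 (SE 0.23, adjusted p = 8.33e-05), and so did MED30, by 1.19 (SE 0.30, adjusted p = 0.00333). Against 30 min in place of 0 min, 15 genes were higher and 8 lower at 120 min in DMSO cells (12.7% and 10.8% of all genes), 23 calls that became 11 without replicate 2 and 13 without replicate 4. Scaling by the total of all reads, in place of TMM on converted reads, moved the median of all genes by 0.60 at 60 min and 0.41 at 120 min against 0 min in DMSO cells, where the share of reads that were converted averaged 3.95% at 60 min and 3.75% at 120 min, against 2.77% at 0 min. On that scale 63 of the 85 genes were higher and 0 lower at 60 min, and 31 higher and 2 lower at 120 min. At 120 against 30 min 29 were higher and 2 lower. In dTAG cells 70 were higher and 0 lower at 60 against 0 min. The share of all genes called on that scale is not given, here or for the counts on it below. None of these counts can therefore be called particular to these genes. Changes given here are relative to the average gene of the same library.

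In DMSO cells of the mitosis series longer genes tended to have lower log2 changes at 60 min, without an even step between length classes. Of 21 tested genes under 10 kb 7 were higher, of 24 from 10 to 30 kb 15 were, of 30 from 30 to 100 kb 11 were, and of 10 genes of 100 kb or more 1 was. Spearman's rho between gene length and log2 change was -0.38 over the 85 genes, a description across genes that share the same libraries. Against 0 min in DMSO cells rho was -0.16 at 90 min and -0.35 at 120 min. In dTAG cells at 60 min rho was -0.27. There 3 of 10 genes of 100 kb or more were higher, and 9 of 30 from 30 to 100 kb. The relation over all genes was not computed. In the release series rho between length and the change at 60 min against 30 min was 0.48.

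**Figure D3:**
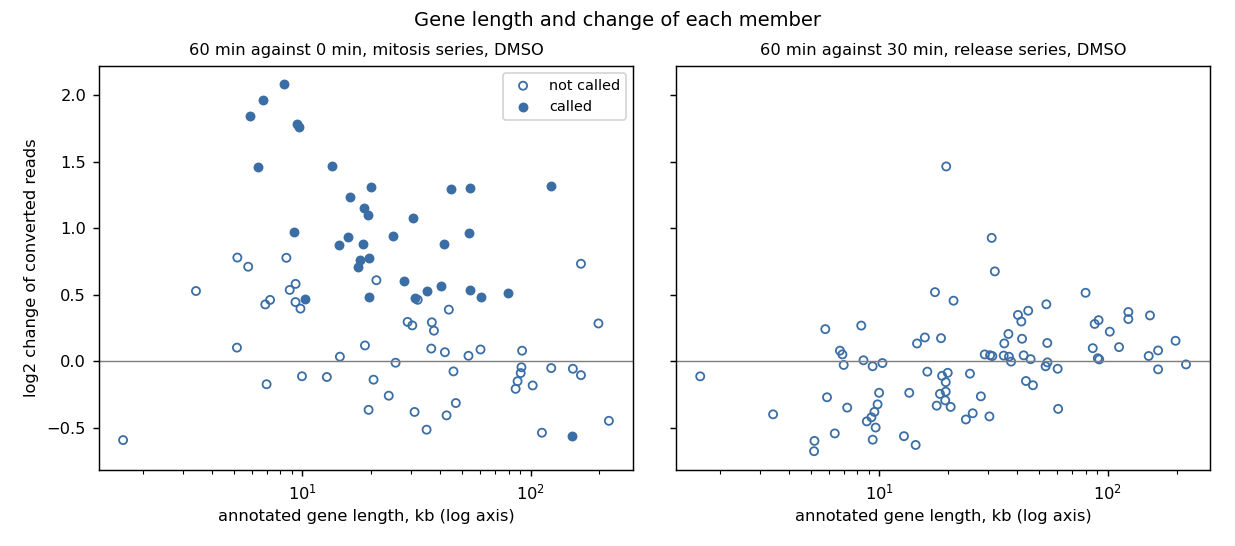
Gene length in kb (log axis) against log2 change for each tested gene, at 60 min against 0 min in the mitosis series and at 60 min against 30 min in the release series, DMSO cells. The points slope down in the mitosis series (rho -0.38) and up in the release series (rho 0.48).

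In the release series MED8 and TBP, highest at 60 min after mitosis, had no 60 min peak among the times sampled. MED8 had 19.8, 25.9 and 26.7 CPM at 60 min, against 25.99, 27.3 and 33.9 CPM at 30 min, and TBP had 19.1, 19.4 and 26.1 CPM at 60 min, against 16.5, 20.1 and 22.3 CPM at 30 min. In both genes the 2 times overlap. MED30 differed from them, with 4.40, 7.25 and 14.5 CPM at 60 min, against 2.50, 2.77 and 3.60 CPM at 30 min, and its 60 min mean was the highest of the 4 times. Its log2 change of 1.47 was not called, and log2 changes of the 85 tested genes between these times ran from -0.68 to 1.47 with a median of 0.00. Between 120 and 30 min 2 of 85 genes were higher and 0 lower in this series, where 1.59% of all 13927 genes tested were higher and 0.775% lower, and 20 of the 85 had an unadjusted p under 0.05, as did 2324 of all 13927 genes. The 2 were POLR1D, with 109.3, 116.9 and 117.1 CPM at 120 min, against 63.7, 64.0 and 83.0 CPM at 30 min (log2 change 0.70, SE 0.11, adjusted p = 0.00142), and GTF2E2, the small TFIIE subunit (0.48, SE 0.13, adjusted p = 0.0449). DESeq2 called 6 genes there, and a fit with the replicate number as a block called 7. Without replicate 1 or replicate 2 there were 0 calls, and without replicate 3 there was 1. Scaling by the total of all reads gave 33 genes, all higher, with the median of all genes moved by 0.53. Mitotic genes were already low at 30 min in the release series, CDK1 averaging 5.38 CPM against 284 CPM at 30 min in the mitosis series, in tables normalised separately. The part of that difference in the time courses was not tested, nor was the difference between the series.

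At 8 h against 4 h after release in DMSO cells of the mitosis series, 2 of 86 genes were higher and 1 lower (6.6% and 6.73% of all 14570 genes tested). TAF4 had 60.7 and 61.1 CPM at 8 h, against 38.9 and 41.5 CPM at 4 h, a log2 change of 0.60 (SE 0.13, adjusted p = 0.00743). MED9, a middle-module subunit, had 20.4 and 21.0 CPM at 8 h, against 12.2 and 12.7 CPM at 4 h (log2 change 0.73, SE 0.20, adjusted p = 0.0254). TAF13 fell, with 23.8 and 26.4 CPM at 8 h, against 38.2 and 38.4 CPM at 4 h (log2 change -0.61, SE 0.16, adjusted p = 0.0160). Without either DMSO library of 8 h there were 0 calls, and without the DMSO library of 4 h, replicate 2, there was 1. On totals of all reads 48 genes were higher and 0 lower, with the median of all genes moved by 0.58.

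The comparison of dTAG with DMSO asks how these genes respond to the drug that targets NIPBL. In the first 120 min, averaged over 30 to 120 min, 0 of 85 genes were called in the mitosis series, where 0.5% of all genes tested were higher and 0.746% lower, and 0 of 85 were called in the release series, where 0.467% were higher and 1.81% lower. At an unadjusted p under 0.05 there were 5 genes in the mitosis series and 3 in the release series, where 1486 of all 14206 genes and 1353 of all 13927 passed that threshold. DESeq2 called 0 in the mitosis series and 1 in the release series. Log2 changes of the genes ran from -0.27 to 0.27 in the mitosis series and from -0.29 to 0.30 in the release series, with a median SE of 0.11 in both.

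At 4 to 8 h after mitosis, genes of several complexes were lower with dTAG, at a share near that of all genes tested. Over the mean of 4, 6 and 8 h, 9 of 86 genes were lower with dTAG and 2 were higher, where 10.7% of all genes tested were lower and 9.07% higher, so the shares called are no larger than the background. The 9 were TAF4B, POLR3G, POLR1E, POLR1C, POLR1B, POLR3E, POLR2D, GTF2E1 and POLR1A. All 3 genes of RNA polymerase I alone that the rule found, POLR1A, POLR1B and POLR1E, were among them, as were 1 of the 2 subunits shared with RNA polymerase III and 2 of 9 subunits of RNA polymerase III. Of the 26 tested Mediator genes 0 were lower and 1 was higher. These counts by complex are small and were not tested, so they cannot be called particular to a complex.

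TAF4B, a paralog of TAF4 in TFIID, had 16.3 and 16.4 CPM with dTAG at 4 h, against 35.5 and 37.7 CPM with DMSO. At 6 h it had 20.0 and 22.3 CPM with dTAG, against 35.4 and 49.0 CPM with DMSO, and at 8 h 20.4 and 22.8 CPM with dTAG, against 31.5 and 31.8 CPM with DMSO. The dTAG libraries were below the DMSO libraries at every time, and the mean log2 change was -0.91 (SE 0.11, adjusted p = 7.55e-06). POLR3G, which encodes an RNA polymerase III subunit known from stem cells and tumour cells, had 9.77 and 12.4 CPM with dTAG at 4 h, against 16.6 and 22.9 CPM with DMSO. It had 10.8 and 11.4 CPM with dTAG at 6 h, against 18.4 and 26.7 CPM with DMSO, and 15.2 and 16.8 CPM with dTAG at 8 h, against 26.3 and 26.6 CPM with DMSO. Again no pair of groups overlapped, and the mean log2 change of POLR3G was -0.85 (SE 0.14, adjusted p = 0.000185). Separation at a single time was common with 2 libraries a group. The dTAG libraries lay wholly below in 22 of the 86 genes at 4 h, 23 at 6 h and 23 at 8 h. They lay wholly above in 19, 19 and 13.

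Of the RNA polymerase I genes, POLR1E, which encodes a subunit of its initiation heterodimer, fell most, by 0.66 (SE 0.13, adjusted p = 0.00174). At 8 h it had 13.6 and 14.2 CPM with dTAG, against 23.6 and 32.1 CPM with DMSO. The groups at 8 h did not overlap, and those at 4 h did, with 13.0 and 18.3 CPM with dTAG, against 18.1 and 26.2 CPM with DMSO. POLR1B had 43.1 and 45.7 CPM with dTAG at 4 h, against 56.97 and 57.02 CPM with DMSO, 42.1 and 45.3 CPM with dTAG at 6 h, against 63.3 and 69.5 CPM with DMSO, and 46.3 and 48.4 CPM with dTAG at 8 h, against 55.2 and 60.1 CPM with DMSO. Its dTAG libraries were lower at each time, with a mean log2 change of -0.42 (SE 0.08, adjusted p = 0.000831). POLR1A fell by 0.33 (SE 0.07, adjusted p = 0.00191) and POLR1C by 0.47 (SE 0.10, adjusted p = 0.00213). POLR3E, of RNA polymerase III, fell by 0.39 (SE 0.10, adjusted p = 0.00674), POLR2D, the stalk subunit of RNA polymerase II, by 0.36 (SE 0.09, adjusted p = 0.00645) and GTF2E1, the large TFIIE subunit, by 0.34 (SE 0.09, adjusted p = 0.00940). The 2 genes that rose were MED13 of the Mediator kinase module, by 0.30 (SE 0.08, adjusted p = 0.0143), and TAF3, a TFIID subunit that reads a promoter histone mark, by 0.28 (SE 0.08, adjusted p = 0.0253). Their dTAG and DMSO libraries overlap over the 3 times together, as do those of POLR3G, POLR1E and POLR1C among the genes that fell. Of 19 other settings the call was kept in 12 for MED13 and in 10 for TAF3, with values down to 0.06 in both.

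**Figure D4:**
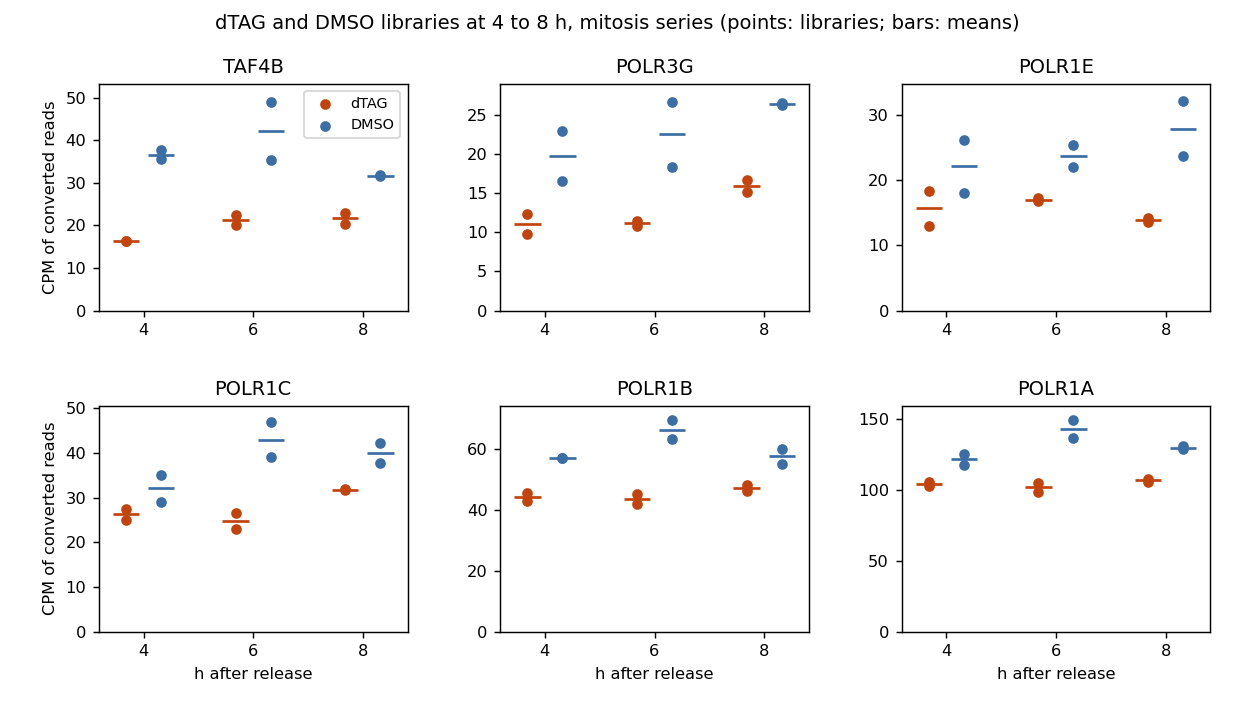
Converted reads per 1e6 (CPM) in each dTAG and DMSO library at 4, 6 and 8 h after mitosis for 6 of the genes called lower over the mean of these times, with bars at the means. Both dTAG libraries of TAF4B and of POLR3G lie below both DMSO libraries at each time.

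By single times, 1 gene was lower at 4 h (TAF4B, 3.5% of all genes tested being lower), 5 at 6 h (4.72%) and 2 at 8 h (4.62%). TAF4B had log2 changes of -1.16 (SE 0.19, adjusted p = 0.000907) at 4 h, -1.004 (SE 0.18, adjusted p = 0.00195) at 6 h and -0.55 (SE 0.18, adjusted p = 0.0689) at 8 h. The test of the drug effect at 8 h against 4 h gave TAF4B an adjusted p of 0.681, the lowest of the 86 genes. Counts of all reads, which include RNA made before the label, moved with the converted reads: on all reads TAF4B had a log2 change of -0.88 and POLR3G one of -0.71, both called. With converted reads set against all reads of the same gene, edgeR called 0 of the 86 genes, with values of -0.07 for TAF4B and 0.07 for POLR1B.

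The longer label gave a second view of the early drug effect. With 120 min of label in the mitosis series, 2 of 88 genes were lower with dTAG and 0 higher, where 2.05% of all 16571 genes tested were lower and 0.41% higher. They were POLR3G and POLR1B, both of which also fell at 4 to 8 h. POLR3G had 12.0, 13.2 and 14.9 CPM with dTAG, against 22.4, 27.2 and 29.2 CPM with DMSO, without overlap (log2 change -0.97, SE 0.19, adjusted p = 0.0115). POLR1B had 56.5, 62.6 and 64.3 CPM with dTAG, against 80.1, 101.0 and 107.6 CPM with DMSO, also without overlap (log2 change -0.65, SE 0.14, adjusted p = 0.0229). Fitted without the release libraries, neither passed, with adjusted p of 0.0647 for POLR3G and 0.113 for POLR1B. Without replicate 1 or replicate 2 there were 0 calls, and without replicate 3 there was 1. With dTAG given only after release 0 of 88 genes were called, where 0.646% of all genes were lower and 0.0724% higher, and 2 had an unadjusted p under 0.05, as did 882 of all 16571 genes. POLR3G then had 20.6, 28.9 and 29.5 CPM with dTAG, against 30.4, 34.2 and 39.3 CPM with DMSO (log2 change -0.40, SE 0.18, adjusted p = 0.891). The difference between the drug effects of the 2 series did not pass for any of the 88 genes, the lowest adjusted p being 0.9997, for POLR1B.

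In cardiomyocytes 1 of 87 genes was higher with dTAG and 0 were lower, where 1.18% of all 18645 genes tested were higher and 3.65% lower. The gene was POLR2A, with 212.6 and 225.6 CPM with dTAG, against 149.0 and 166.9 CPM with DMSO. These groups did not overlap, and the log2 change was 0.47 (SE 0.09, adjusted p = 0.0102). The dTAG libraries lay wholly above in 17 of the 87 genes and wholly below in 23. Fitted without the neuron libraries it was 0.47 as well, with an adjusted p of 0.0816, and without DMSO replicate 1 the gene was not called. In neurons 0 of 87 genes were called, where 0.574% of all genes were higher and 1.66% lower. DESeq2 called 0 as well, and 6 genes had an unadjusted p under 0.05, as did 2185 of all 18645. POLR3G in neurons had 8.66 and 11.1 CPM with dTAG, against 16.4 and 16.5 CPM with DMSO (log2 change -0.74, SE 0.20, adjusted p = 0.0940), and TAF4B had 8.52 and 9.18 CPM with dTAG, against 12.2 and 16.5 CPM with DMSO (log2 change -0.70, SE 0.21, adjusted p = 0.157). The dTAG libraries were below the DMSO libraries in both genes, and neither gene passed. Such separation was common with 2 libraries a group: the dTAG libraries lay wholly below in 23 of the 87 genes and wholly above in 19. Between neurons and cardiomyocytes the lowest adjusted p for a difference in drug effect was 0.392, for MED21.

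Set side by side over 7 drug comparisons (early mean and 120 min label in both series, 4 to 8 h, and both cell types), POLR3G, TAF4B, POLR1A, POLR1B and POLR1E had log2 changes below 0 in all 7. These 5 were singled out after their values were seen, and all 5 were called at 4 to 8 h, which is 1 of the 7. How many other genes lay below 0 in all 7 was not counted. POLR3G had -0.13 and -0.10 in the early means of the mitosis and release series, -0.85 at 4 to 8 h, -0.97 and -0.40 with the 120 min label, -0.28 in cardiomyocytes and -0.74 in neurons. TAF4B had -0.06 and -0.01 in the early means, -0.91 at 4 to 8 h, -0.31 and -0.40 with the 120 min label, -0.31 in cardiomyocytes and -0.70 in neurons. Only POLR3G and POLR1B were called lower in 2 of these comparisons, and 0 genes were called lower in 3 or more.

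**Figure D5:**
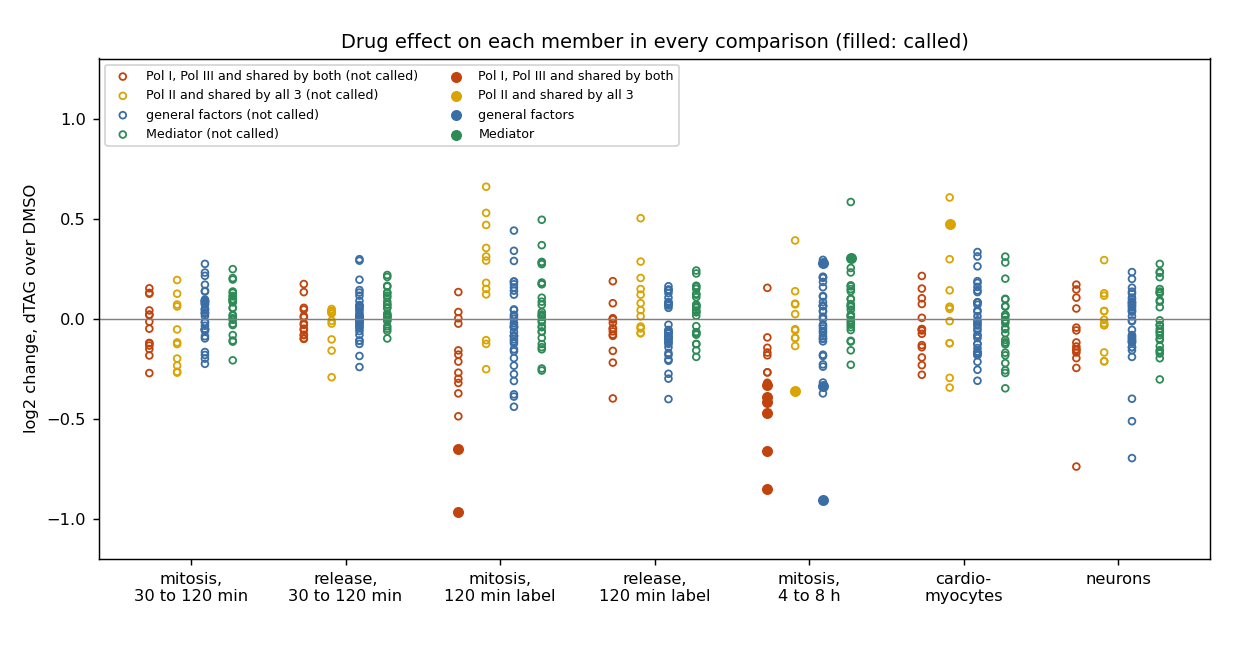
Log2 change of converted reads, dTAG over DMSO, for each tested gene in 7 comparisons, coloured by class and filled where called. POLR3G lies at -0.85 and TAF4B at -0.91 at 4 to 8 h, and MED7 with the 120 min label of the release series, at almost no reads, falls outside the axis.

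The 2 cell types also allow a comparison of levels without drug. In DMSO neurons 20 of 87 genes were lower than in DMSO cardiomyocytes and 8 were higher, where 26.8% of all genes tested were lower and 26.9% higher, so neither share exceeds the background. The 28 calls became 18 without neuron DMSO replicate 1 and 17 without neuron DMSO replicate 2. The median log2 change of the 87 was -0.13, against 0.01 over all genes. POLR2C had 26.6 and 27.4 CPM in neurons, against 46.4 and 47.0 CPM in cardiomyocytes, which is the largest fall (log2 change -0.79, SE 0.11, adjusted p = 9.89e-05), though relative to all reads of the gene it was 0.16. TAF10, TAF13, MED8, MED21 and POLR3B fell by 0.66, 0.63, 0.62, 0.62 and 0.57. GTF2A1, the large TFIIA subunit, had 210.6 and 211.4 CPM in neurons, against 137.2 and 153.8 CPM in cardiomyocytes (log2 change 0.54, SE 0.08, adjusted p = 0.000209). POLR2A had 201.0 and 211.5 CPM in neurons, against 149.0 and 166.9 CPM in cardiomyocytes (log2 change 0.39, SE 0.09, adjusted p = 0.00324). Neither gene's groups overlapped. Neuron libraries lay wholly above in 16 of the 87 genes and wholly below in 43.

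TAF4B was higher in neurons, at 12.2 and 16.5 CPM, against 8.19 and 8.89 CPM in cardiomyocytes (log2 change 0.74, SE 0.20, adjusted p = 0.00839). POLR2F had the largest rise, 1.17 (SE 0.33, adjusted p = 0.0115), at low counts of 5.96 and 8.47 CPM in neurons, against 2.01 and 4.46 CPM in cardiomyocytes, and relative to all reads of the gene it was -0.01761. POLR1C rose by 0.43, and MED14 by 0.35 (SE 0.08, adjusted p = 0.00385). On totals of all reads 46 genes were lower in neurons and 2 higher, with the median of all genes moved by -0.25.

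A further 55 genes work with these factors and lie outside the naming rule: assembly factors and paralogs of the polymerases, TFIIB-related and other general factors, the core and kinase of TFIIH, the Mediator kinases and paralogs, and pausing and elongation factors. At 60 min against 0 min in DMSO cells 18 of 51 tested were higher and 4 lower, beside 22% and 13.9% of all genes. The pausing and elongation factors had 7 of 17 higher and 0 lower, and the Mediator kinases and paralogs 0 of 5 higher and 2 lower. With dTAG at 4 to 8 h 2 of 52 partners were higher and 1 lower, beside 9.07% and 10.7% of all genes. In neurons against cardiomyocytes 3 of 53 were higher and 16 lower, beside 26.9% and 26.8% of all genes.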

How the data were processed

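SLAM-seq libraries of human cells were analysed from the authors' deposited tables, which give per gene the count of all reads, the count of reads with T-to-C conversions and the converted fraction. Per the submitters' processing notes, reads were processed with HISAT, Picard and HTSeq on hg38, with versions and counting strand not given in the sources used here. No library without 4-thiouridine was analysed here. Groups came from the sample titles. Converted read counts were fitted in 5 sets (mitosis series 0 to 120 min, 4 to 8 h, release series, 120 min label, iPSC-derived cells) with edgeR 4.0.16 (R 4.3.3): TMM, filterByExpr with minimum count 10 and minimum total 15, and quasi-likelihood tests adjusted by Benjamini-Hochberg over all genes tested, threshold 0.05. DESeq2 1.42.0, no filter, other scalings, all reads, replicate blocks and left-out replicates were alternatives. Fits were tested on simulated counts. CPM are per 1e6 converted reads after TMM.

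The genes and partner lists were chosen with earlier results of these data known. Named genes were POLR1A, POLR2A, POLR3A, TBP, TAF1 and MED14, and, per comparison, up to 6 called genes with the largest rise and 6 with the largest fall among those with mean log2 CPM of at least 1. Others are named as the lowest, highest or only called gene of a complex, or where stated as chosen after their values were seen. The values of 1 gene that the rule names are not reported here. The rule was extended to the comparisons at 60 min and between cell types after their values were seen. Library pairs compared within groups (94) all differed beyond counting noise. Promoter sequences are from RefSeq. Among comparisons with 3 or more pairs, samples with the same replicate number deviated together in every pair (correlation over 0.1) in 3. These were the release series at 120 min, and the mitosis series at 0 min and with the long label. With only 2 pairs, correlations were also over 0.1 in the mitosis series at 30 min (0.27 and 0.47), 6 h (0.19) and 8 h (0.17). At 4 h the correlation was 0.04.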

Additional observations from a re-analysis of the deposited data

Results flagged for a closer look

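In groups of 4 libraries, 12 of 228 sets of values of the named genes had a library far from the others, and chance flags about 1 in 20. In DMSO cells at 60 min, replicate 3 stood apart for MED21 at 101.9 CPM and for TAF1 at 89.06 CPM, and replicate 2 for MED25 at 15.58 CPM. In DMSO cells at 90 min, replicate 4 stood apart for GTF2F1 at 4.486 CPM. In dTAG cells at 0 min, replicate 1 stood apart for POLR3B at 68.78 CPM. In dTAG cells at 60 min, replicate 1 stood apart for GTF2F1 at 11.52 CPM and MED1 at 85.2 CPM, and replicate 2 for MED13 at 263.7 CPM. Replicate 3 of that group stood apart for POLR1A at 93.74 CPM, POLR1B at 65.0 CPM and TAF1 at 87.55 CPM. In dTAG cells at 90 min, replicate 2 stood apart for TBP at 37.17 CPM.

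For 5 genes every DMSO library moved one way against 30 min in the mitosis series and the other way in the release series. At 90 min POLR3D had log2 changes of 1.20 in the mitosis series and -0.43 in the release series, and TAF7 had 0.80 and -0.27. At 120 min MED30 had -1.31 in the mitosis series and 1.09 in the release series, TAF13 had 0.57 and -0.79, and TAF4 had -1.49 and 0.46. All 5 changes passed the test in the mitosis series. None passed in the release series, where adjusted p ran from 0.0826 (TAF13) to 0.272 (POLR3D). The matching number over all genes was not counted, so the 5 cannot be called particular to these genes. The differences between the series were not tested.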

How the results depend on the processing

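Counts of calls among the genes under other settings, lower and higher together, are given here, and the cause of each shift was not tested. Leaving out replicates gave 18 to 33 calls for 60 against 0 min in DMSO cells, 10 to 24 for 120 against 0 min, 25 to 37 for 60 against 0 min with dTAG, 11 to 22 for 120 against 30 min in the mitosis series and 0 to 1 in the release series, 0 to 2 for 8 against 4 h, 9 to 15 for dTAG at 4 to 8 h, 0 to 1 for the 120 min label of the mitosis series, 0 to 1 for cardiomyocytes and 17 to 30 between cell types. With no filter, 120 min gave 15 calls against 0 min and 13 against 30 min, and neurons 1. With all reads fitted instead, 60 min gave 12 in DMSO and 8 in dTAG cells, and the release series at 120 min, the 120 min label and cardiomyocytes gave 0. With totals of all reads as library sizes, 60 min gave 63 in DMSO and 70 in dTAG cells, the release series 33, 8 against 4 h 48, the 120 min label 1, neurons 1 and cell types 48. Relative to all reads of each gene, 120 min gave 12 against 0 min and 13 against 30 min, the release series 4, 8 against 4 h 7, dTAG at 4 to 8 h 0, the 120 min label 1 and cell types 13. DESeq2 gave 6 in the release series at 120 min and 1 for its mean drug effect. With a replicate block the release series at 120 min gave 7 calls, cardiomyocytes 0 and cell types 18; same-numbered cardiomyocyte libraries deviated apart (correlation -0.245), and the crossed pairing, chosen after seeing the data, gave 4. Fitted alone, the mitosis series with 120 min of label gave 0, cardiomyocytes 0 and neurons 3. Directions turned under totals of all reads for TAF15 (0.01905 in DMSO and 0.12 in dTAG cells), TAF4 (0.13) and MED1 (0.23), the last 2 in dTAG cells, all at 60 min. Relative to all reads of each gene they turned at 120 against 0 min for TAF1B (0.27), TAF15 (0.04271), MED8 (-0.01466), MED31 (-0.19) and POLR2C (-0.06491), at 120 against 30 min for TAF4 (0.11), TAF1B (0.17), TAF7 (-0.25) and GTF2F1 (-0.006009), with dTAG at 4 to 8 h for POLR1B (0.06998), and between cell types for POLR2C (0.16) and POLR2F (-0.01761). With all reads GTF2E2 turned in the release series (-0.04309). Groups of 2 libraries and few converted reads limit the precision of low genes.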
